A study of Dunaliella salina with 9 samples.

Results

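The subject is a set of 32 transcript clusters of Dunaliella salina, a single-celled green alga that lives in brines, whose abundance was at most 0.5 of its level in cells kept at their growth light, and alike, in cells moved to either of 2 stronger lights. Among the 76875 clusters listed, these 32 were chosen by their own measured values in all 9 RNA sequencing libraries. The libraries fell into 3 groups of 3: LL, cells kept at 150 µmol photons m⁻² s⁻¹; ML, cells moved to 600; and HL, cells moved to 1500. All 3 groups came from cultures grown at the LL irradiance and 22 °C, with 16 h of light and 8 h of dark, spun down in mid-exponential phase and put into fresh medium, by a protocol that the labels give for all 9 samples alike. How long the cells spent at the new light is not stated in the labels. The series design calls the samples biological triplicates, but separate cultures are named in no label, so p-values measure only how these samples spread, and that spread may be technical in part. Depth lay between 17778225 and 18914255 counts per library in LL, between 18451243 and 19535140 in ML and between 18799637 and 19643714 in HL.

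Green algae that are moved to stronger light acclimate over hours to days. They commonly make less chlorophyll and fewer light-harvesting antenna proteins, so that less light is absorbed, and they build up photoprotective pigments, antioxidant enzymes and the machinery of carbon fixation. D. salina is known for collecting carotenoids under strong light and glycerol in strong salt. None of this could be assigned to the members: the files do not pair cluster identifiers with gene names, and 0 of the 76875 identifiers matched the 16683 genes of the annotation table used. The identity of the cells could not be checked against marker genes for the same reason. Only 2 members are given by identifier, and the others by a number from 1 to 32 that follows their mean CPM (the count scaled to the library total) in LL. CPM depends on transcript length, so these numbers are names and give no order of expression. The order between members is given per length, in FPKM (fragments per kilobase of transcript, scaled to depth).

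The members were kept by a chain of limits on mean CPM. A mean of at least 5 CPM in LL was reached by 14830 clusters, of which 14809 had means above 0 in ML and HL and 21 did not. The mean was at most 0.5 of LL for 796 of these clusters in ML, for 2126 in HL and for 95 in both. Of those 95, the ML and HL means were less than 1.5-fold apart for 36 (37.9%), against 7070 of the 14809 (47.7%). Another 59 were further apart, 43 with HL below ML and 16 with ML below HL. From the 36, 4 were dropped since an ML or HL library was not below every LL library, which left the 32. Since these values chose the members, their falls below LL and the likeness of ML and HL are a description and carry no test.

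**Figure D1:**
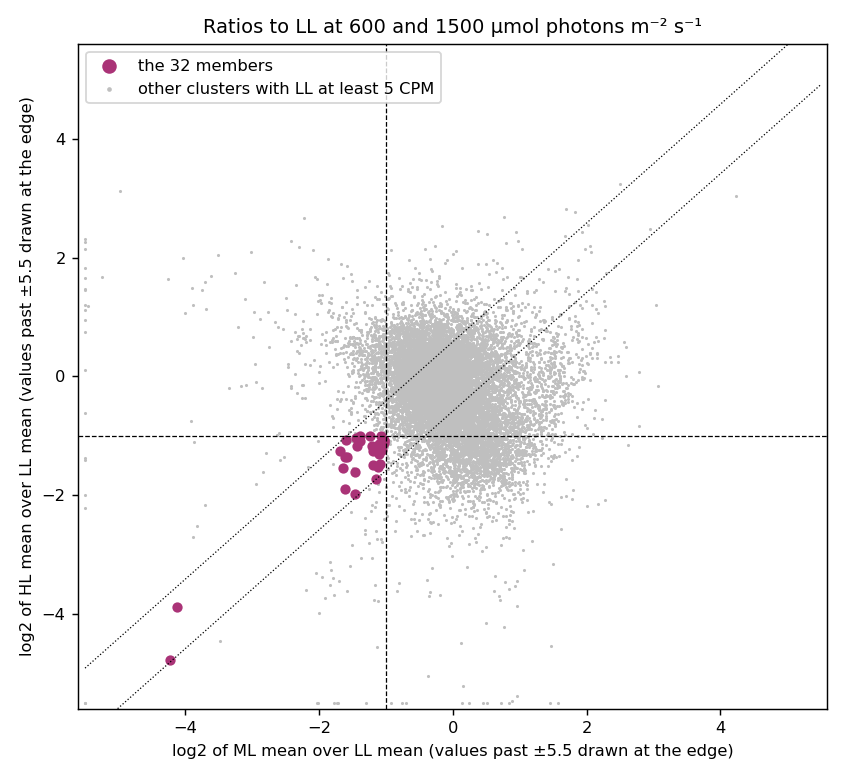
Each point is a cluster with an LL mean of at least 5 CPM, placed by the log2 ratio of its ML mean to its LL mean (x axis) and of its HL mean to its LL mean (y axis). Dashed lines mark 0.5 of LL, dotted lines 1.5-fold between ML and HL. The 32 members lie in the lower left corner between the dotted lines, and 2 of them lie apart from the rest near −4 on both axes.

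The members together made up a small share of each library, lower by more than 2-fold at both stronger lights. Summed over the members, the LL libraries had 2393, 2329 and 2312 CPM, the ML libraries 958, 1004 and 1027 CPM and the HL libraries 952, 953 and 964 CPM. Every ML and HL library lay below every LL library, as the limits required of each member. In CPM the ML and HL libraries overlapped. That overlap depends on the scaling: TMM factors, described further on, shift HL upward against ML by 0.21 on the log2 scale. The means of these sums over 3 libraries were 2345 CPM (SD 42.8) in LL, 996 CPM (SD 35.3) in ML and 956 CPM (SD 6.68) in HL. Of those sums the members numbered 1 to 3 held between 59.1% and 62.1% in LL, between 62.2% and 65.8% in ML and between 62.2% and 64.7% in HL. The sums therefore mostly follow those 3. CPM is a share of all counts, so a lower value in these bulk cultures cannot be told apart from more RNA of other clusters, nor fewer cells with the transcript from less transcript per cell.

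**Figure D2:**
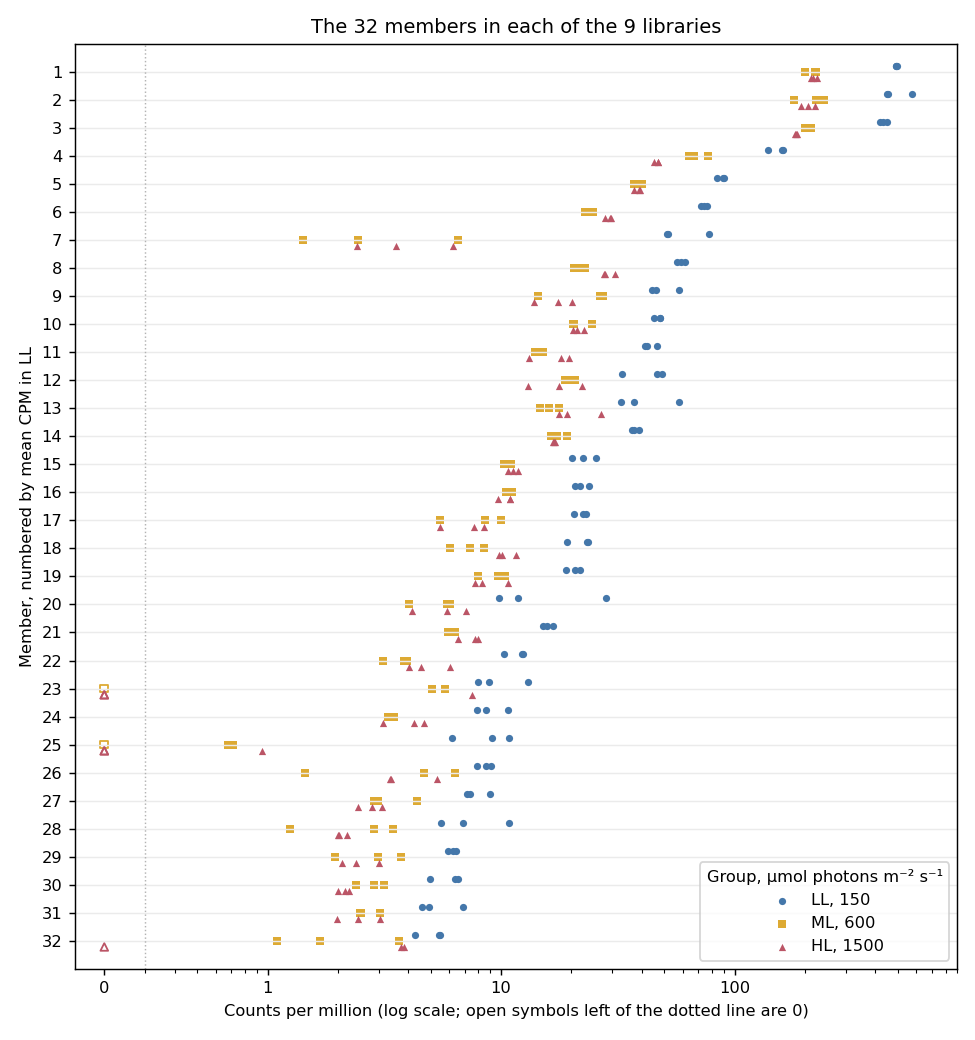
CPM of each of the 32 members (rows, numbered by mean CPM in LL) in the 3 LL (circles), 3 ML (squares) and 3 HL (triangles) libraries on a log axis. Open symbols are counts of 0. All LL libraries lie to the right of all ML and HL libraries of the same member, as the limits required, and ML and HL symbols mostly intermix.

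The member with the most counts in LL was Cluster-5009.32401 (member 1), which fell to below 0.5 of its LL level at both stronger lights. It had 493, 491 and 497 CPM in the LL libraries, 222, 199 and 222 in ML and 216, 212 and 226 in HL. The 6 libraries at stronger light formed a single range, and the HL values lay inside the ML range but for the highest. By edgeR's quasi-likelihood test, its log2 difference was −1.02 for HL against LL (SE 0.07) and −1.24 for ML against LL (SE 0.07), given as a description since the limits used both contrasts. HL against ML gave 0.22 (SE 0.07, Benjamini-Hochberg adjusted p = 0.0164), with TMM factors that scale the libraries to each other. This value too is a description, since the limits used that contrast. The same difference was 0.02 (adjusted p = 0.729) in edgeR on library totals alone, so the call of a higher level in HL rested on the scaling.

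Cluster-5009.40629 (member 7) had the strongest fall among the 19 members with at least 20 CPM in LL. It had 51.5, 52.0 and 77.7 CPM in LL, 1.41, 6.53 and 2.44 in ML and 6.23, 2.42 and 3.57 in HL. The lowest LL library was thus several times the highest of the other 6, and the HL libraries lay within the range of ML. Its LL mean was 17.5 times its ML mean and 14.8 times its HL mean. The ML value rested much on replicate 2 of ML, the highest of the 3. The edgeR log2 difference was −3.73 for HL against LL (SE 0.49) and −4.17 for ML against LL (SE 0.50), which became −4.99 without that library. The log2 difference of HL against ML was 0.44, and 1.251 without that library. Since the limits asked for alike ML and HL means, no test is read for it. The largest coefficient of variation (CV, SD over mean) of its groups was 78.3%.

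Most other members with many counts fell by between 2-fold and 3-fold, with little spread. Member 2 had 574, 454 and 449 CPM in LL, 179, 224 and 242 in ML and 192, 220.1 and 206 in HL. One LL library was higher than the others, and all ML and HL libraries lay together. Member 3 had 419, 430.2 and 451 CPM in LL, 212, 201 and 213 in ML and 184, 184 and 181 in HL. Here HL lay below ML in every library in CPM, by less than the distance of either from LL. With TMM factors its edgeR log2 difference of HL against ML was 0.015 (SE 0.06), so that order rested on the scaling. Member 5 had 89.4, 83.7 and 90.4 CPM in LL, 38.2, 37.3 and 39.9 in ML and 37.0, 39.2 and 38.9 in HL, with the ML and HL libraries interleaved in CPM. With TMM factors edgeR called it higher in HL than in ML, by 0.20 on the log2 scale (SE 0.06, adjusted p = 0.0248). The limits used this contrast, so that call is only a description. Member 10 was interleaved in CPM as well, with 47.9, 47.9 and 45.3 CPM in LL, 20.4, 20.5 and 24.4 in ML and 20.4, 21.2 and 22.7 in HL. Its log2 difference of HL against ML with TMM factors was 0.18 (SE 0.08) and was not called.

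A few well-counted members differed between the 2 stronger lights by more than their replicate spread. Member 4 was the one nearest to the limit of 1.5-fold, with 161, 159.6 and 139.7 CPM in LL, 67.1, 76.6 and 63.9 in ML and 47.0, 45.1 and 47.1 in HL. Each step to stronger light was a step down for it, with no overlap between groups. Members 6 and 8 had the other order, lowest at the middle light. Member 6 had 72.0, 76.0 and 73.6 CPM in LL, 24.7, 22.9 and 24.6 in ML and 29.6, 29.1 and 27.8 in HL. Member 8 had 56.8, 61.6 and 58.9 CPM in LL, 22.8, 21.6 and 20.6 in ML and 27.5, 30.6 and 27.8 in HL. In both, every HL library lay above every ML library and far below every LL library.

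Members 9, 11 and 17 fell as far but varied more between libraries. Member 9 had 44.5, 45.9 and 57.8 CPM in LL, 14.3, 26.6 and 27.2 in ML and 17.5, 13.8 and 20.1 in HL. One ML library sat with the HL libraries and the others above them. Member 11 had 46.4, 42.1 and 41.2 CPM in LL, 15.1, 13.9 and 14.0 in ML and 19.5, 17.97 and 13.1 in HL. Member 17 had 22.5, 23.2 and 20.5 CPM in LL, 5.46, 10.03 and 8.55 in ML and 8.42, 7.65 and 5.48 in HL. The CPM ranges of ML and HL overlapped in members 11 and 17. With TMM factors, described further on, edgeR called member 11 higher in HL than in ML, by 0.43 on the log2 scale (SE 0.13, adjusted p = 0.0203). The limits used this contrast, so the call is only a description.

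Over all 32, the falls were mostly close to the limit that chose them. LL was between 2-fold and 3-fold above both other groups for 21 members, at least 3-fold above both for 3 and at least 8-fold above both for 2 of those 3. In another 8 members only 1 of the 2 falls reached 3-fold, the ML fall in 5 and the HL fall in 3. The median log2 ratio of members was −1.20 for ML over LL and −1.25 for HL over LL, against −0.12 and −0.19 over the 14830 clusters. For 18 members the larger of their 2 ratios to LL was at least 0.45, just under the limit of 0.5. The last member inside that limit had a larger ratio of 0.4996 (5.06 CPM in LL, 2.14 in ML and 2.53 in HL), and the nearest cluster outside had 0.5026 (7.43, 3.74 and 3.24 CPM). At the limit of 1.5-fold between ML and HL, member 4 was inside at 1.49 and a cluster with 63.0 CPM in LL, 19.9 in ML and 30.2 in HL was outside at 1.52. At the floor of 5 CPM in LL, the member nearest to it had 5.06 CPM, and the nearest cluster below it had 4.81. The separation of libraries was narrow for few: the lowest LL library was less than 1.2 times the highest other library in 2 members and at least 1.5 times in 26. The narrowest member had 1.05 times, and the nearest of the 4 clusters that failed had 0.105 times.

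The member with the largest ratio, number 25, and the other members described from here on by their number were picked after their values were seen. Member 25 had 9.13, 6.16 and 10.8 CPM in LL, 0, 0.676 and 0.711 in ML and 0.95, 0 and 0 in HL. It was all but absent from 6 libraries, with 26.3 counts in ML and 18.2 in HL summed over the group, against 472 in LL. A count of 0 in a library of this depth allows up to 0.154 to 0.163 CPM in ML and 0.153 to 0.160 in HL, taking 3 counts as the floor and counting error only. Such 0 counts occurred in 3 members, 9.38% of the 32, against 1.27% of the 14830 clusters and 25.4% of the 59 that fell at both lights to unlike levels. Member 23 had 7.94, 13.03 and 8.84 CPM in LL, 5.78, 5.05 and 0 in ML and 7.53, 0 and 0 in HL. Its likeness between ML and HL was thus one of means only: single libraries were at 0 or between 5.05 and 7.53 CPM.

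Across the 3 groups, edgeR tested 34377 clusters, and all 32 members were among them. Lower levels in HL than in LL were called for 29 members, and in ML than in LL for 29, where 22.4% and 19.5% of all tested clusters were called lower. Since the limits used these contrasts, nothing is read from those counts. Relative to the median of all tested clusters, the members' median log2 difference was −1.10 for HL against LL and −1.27 for ML against LL. The same 3 members, numbers 23, 26 and 32, were not called in either contrast at an adjusted p of 0.05. Their log2 differences were −1.83, −0.91 and −0.84 for HL against LL (SE 1.51, 0.43 and 0.96). For ML against LL they were −1.49, −1.06 and −1.30 (SE 1.48, 0.43 and 0.97). All 3 combined an LL mean below 10 CPM with a wide spread, with a largest group CV of 173%, 60.0% and 86.6%. This does not set them apart: member 25, with 8.69 CPM in LL and a largest group CV of 173%, was called lower in both contrasts.

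How alike the members were between the stronger lights depended on the scaling. In CPM, the HL mean was below the ML mean in 19 members and above it in 13, and the library ranges overlapped in 24. Every HL library was above every ML library in 5 members and below every ML library in 3. The same shares over all clusters were not counted, so nothing is read from these or from the 24. By a different measure, edgeR with TMM factors called 58.8% of all tested clusters different between HL and ML. The means were less than 1.1-fold apart in 11 members and further apart, up to the limit, in the other 21. With TMM factors, edgeR gave a positive log2 difference for HL against ML in 24 members and a negative one in 8, with a median of 0.15, while library totals gave 13 positive and 19 negative, with a median of −0.06. The factors averaged 1.03 in LL, 1.06 in ML and 0.918 in HL, which shifts every cluster by 0.21 on the log2 scale for HL against ML and by 0.17 for HL against LL. Taken relative to the median of all tested clusters, the members' median was 0.23 with TMM factors and 0.22 with library totals. Subtracting a median removes any scaling of whole libraries, so the likeness of these values is by construction. The gap also depended on the reference. In CPM, the median log2 ratio of HL to ML was −0.05 over members and −0.07 over the 14809 clusters that passed the LL floor with means above 0.

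By edgeR with TMM factors, 10 of the 32 members differed between HL and ML, 9 higher and 1 lower in HL, beside the 58.8% of all tested clusters. With library totals alone 6 members differed, 4 higher and 2 lower, beside 20098 of the 34377 tested clusters. The limit of 1.5-fold had used this contrast too, so nothing is read from those shares. The single differences and p-values that follow are likewise only a description. The largest called difference was that of member 18, with a log2 difference of 0.73 (SE 0.15, edgeR adjusted p = 0.00315). It had 19.1, 23.3 and 23.7 CPM in LL, 8.47, 7.37 and 6.02 in ML and 9.79, 10.1 and 11.6 in HL. Member 8 followed among those with more than 20 CPM in LL at 0.61 (SE 0.08, edgeR adjusted p = 0.00013), and member 6 at 0.46 (SE 0.06, edgeR adjusted p = 0.000273). The one lower call was member 4, at −0.37 (SE 0.06, edgeR adjusted p = 0.000526). Under that scaling members 8, 13, 18 and 22 were past the limit of 1.5-fold as well, which they had met in CPM. The log2 difference was 0.62 for member 22 and 0.60 for member 13, the latter not called (SE 0.23, edgeR adjusted p = 0.0563).

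Per length, the members spanned nearly 3 orders of magnitude in LL. Member 2 had the highest level, at 994 ± 144 FPKM in LL, 432 ± 63.5 in ML and 409.5 ± 30.1 in HL (each ± the SD over 3 libraries). Member 3 came next with 458 ± 16.1 FPKM in LL, 219.7 ± 8.02 in ML and 192 ± 1.04 in HL. Member 1 followed with 440.1 ± 1.14 FPKM in LL, 191 ± 12.4 in ML and 193 ± 6.56 in HL. In LL each library of member 3 (443 to 475 FPKM) lay above those of member 1 (439 to 441 FPKM), but in HL the 2 did not differ beyond their spread. A wide step separated these 3 from members 5 and 15, with 109 ± 4.13 and 108 ± 14.1 FPKM in LL, which did not differ beyond their spread. The lowest was member 28, with 1.27 ± 0.452 FPKM in LL, 0.417 ± 0.186 in ML and 0.343 ± 0.0153 in HL. The median over members was 24.5 FPKM in LL, against 15.6 over the 14830 clusters, whose lowest values the floor in CPM also sets.

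The deposited counts behind these values differed as widely. Summed over its 3 libraries, member 1 had 26956 counts in LL, 12314 in ML and 12552 in HL, and member 32 had 276.5 in LL, 124 in ML and 144 in HL. LL means were at least 100 CPM in 4 members, from 20 to 100 CPM in 15 and below 20 CPM in 13, of which 10 were below 10 CPM. The median LL mean was 22.1 CPM for members and 18.4 CPM for the 14830 clusters.

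A length can be read from each cluster's count and FPKM, which the limits did not use directly. The implied lengths of the members ran from 97.8 to 7499 bases, with a median of 1196, against 1349 over the 14830 clusters. At the ends, 6 members (18.8%) were under 500 bases, against 11.0% of the clusters, and 8 (25%) were at least 2500 bases, against 18.3%. In the 59 clusters that fell to unlike levels the shares were 10.2% and 20.3%. These member shares rest on few clusters, 1 of them at 499 bases, so nothing is read from them. Member 24 was the shortest at 97.8 bases and had 8.61, 7.88 and 10.7 CPM in LL, 3.29, 3.48 and 3.31 in ML and 3.12, 4.68 and 4.26 in HL. Member 2, the highest per length, was implied at 499 bases, and member 23, which was at 0 in 3 libraries, at 7499. An implied length may be an effective length, shorter than the transcript, so short values in particular are uncertain.

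The deposited counts carry decimals, which can arise when a read is divided between similar sequences. In 24 members at least 1 library had a count that was not whole (by more than 0.005), in 13 of them all 9 libraries did, and 8 members had whole counts throughout. That is 25% of members with whole counts, against 44.1% of the 14830 clusters. The 8 with whole counts were short, from 97.8 to 1762 bases with a median of 420 bases, and all fell moderately: LL was 2.03 to 2.70 times ML and 2.01 to 2.80 times HL. In the 24 others, LL was up to 18.8 times ML and up to 27.4 times HL, and both falls of 8-fold or more (members 7 and 25) were in clusters with such decimals. The ratio of 27.4 is that of member 25 and rests on 18.2 counts in HL replicate 1, without which its HL mean is 0 and no ratio exists. A divided read makes such values uncertain, and whether that moved these falls was not tested.

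**Figure D3:**
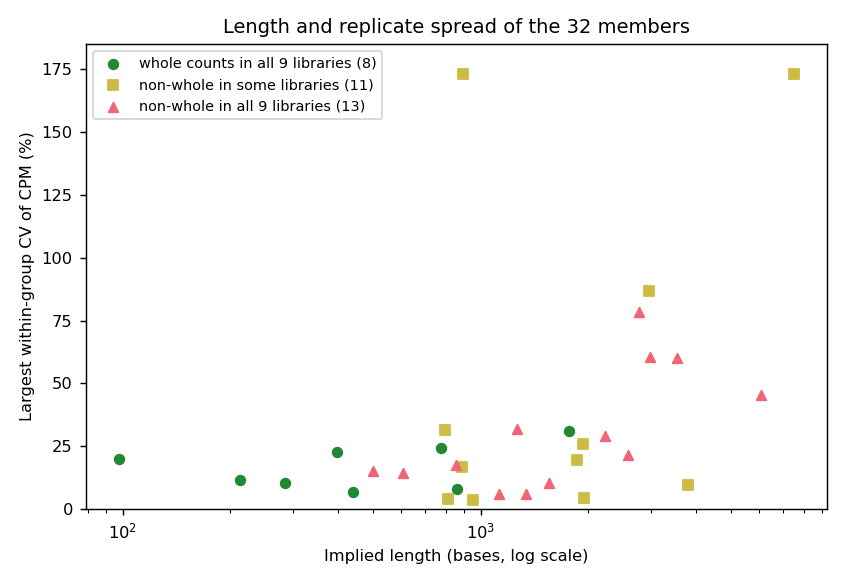
Implied length of each member in bases (x axis, log scale) against the largest CV of CPM among its 3 groups in percent (y axis). Symbols separate the 8 members with whole counts in all 9 libraries, the 11 with decimals in some and the 13 with decimals in all. CVs above 30% were found for 6 of the 8 members of at least 2500 bases and for 4 of the 24 shorter ones.

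The median replicate spread was wider in the members than over all clusters with an LL mean of at least 5 CPM. Members had a median within-group CV of 10.8% (LL), 11.7% (ML) and 14.6% (HL), against 7.48%, 7.29% and 6.84% over the 14830 clusters. In the 59 clusters that fell to unlike levels it was wider still, at 12.1%, 18% and 26.6%. A CV above 30% in at least 1 group was seen in 10 members. It was seen in 6 of the 8 members (75%) with an implied length of at least 2500 bases and in 4 of the 24 shorter ones (16.7%). Over all clusters with an LL mean of at least 5 CPM the shares were 20.4% of the 2720 long and 6.4% of the 12110 shorter ones. Member 4, at 3810 bases, and member 22, at 2588 bases, were the long members without such spread. The limits bear on spread, since separate libraries were asked for, so these shares are given as a description.

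How far the falls held in libraries that had no part in the choice was looked at by applying the limits to 2 replicates of each group and reading the third, by replicate number, which only names a sample here. Without replicate 1 of each group 33 clusters were chosen, without replicate 2, 44, and without replicate 3, 57. Of these, 21, 22 and 27 were among the 32 members. In the libraries left out, 30 of 33, 37 of 44 and 46 of 57 were lower than LL at both stronger lights. A level of at most 0.5 of LL at both was reached by 15 of 33, 18 of 44 and 22 of 57, and by 11, 13 and 13 of them with ML and HL also less than 1.5-fold apart. The median log2 ratio of ML to LL was −1.11, −0.98 and −0.99 in the libraries left out, against −1.27, −1.28 and −1.26 in those used. For HL to LL it was −1.21, −1.21 and −1.06 in the libraries left out, against −1.31, −1.35 and −1.32 in those used. Most of the chosen clusters were thus lower at both lights in the libraries left out, and the size of both falls was smaller there. The same share over all 14830 clusters was not counted. Their median log2 ratios over all 9 libraries were already negative, at −0.12 for ML and −0.19 for HL. A single LL library also divides both ratios of a reading, so these are not independent. With 1 library per group in each reading there is no test.

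**Figure D4:**
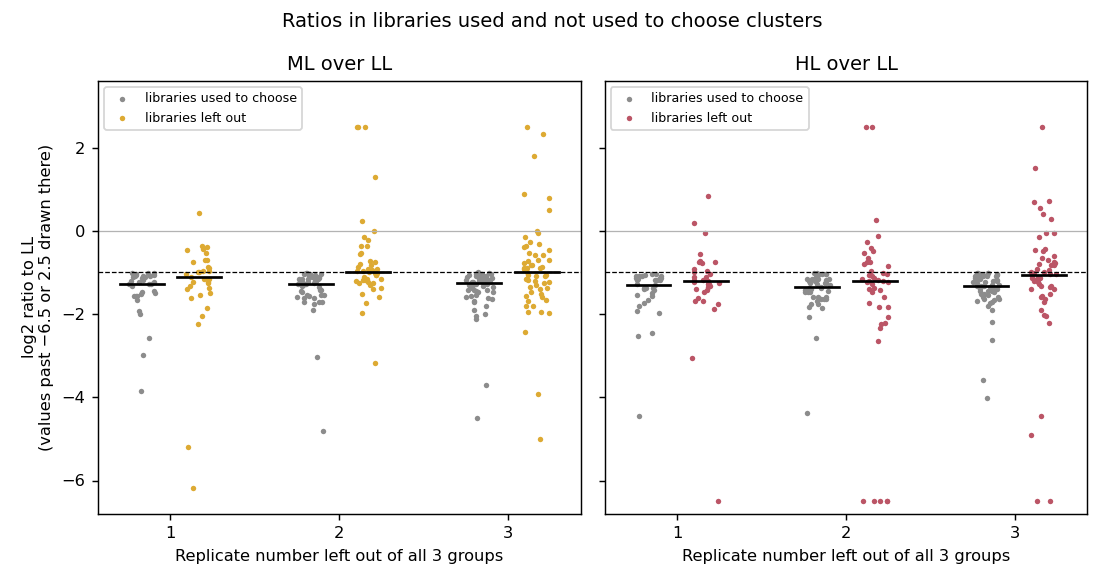
Log2 ratios to LL of the clusters chosen without replicate 1, 2 or 3 of every group (33, 44 and 57 clusters), for ML (left panel) and HL (right panel). Grey points are the libraries used to choose, coloured points those left out, black bars the medians and the dashed line 0.5 of LL. The coloured points spread past 0.5 of LL and in part above LL, and their medians lie from −1.21 to −0.98.

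Which clusters belong depended on the scaling, mostly through HL. With TMM effective library sizes in place of library totals 27 clusters met the limits, 19 of them members, and with RLE sizes, another scaling in edgeR, 25, of which 17 were members. All 32 members kept an ML mean of at most 0.5 of LL under both, but the HL mean was at most 0.5 of LL for 21 with TMM sizes and 19 with RLE sizes. On the deposited FPKM with the same floor of 5, 40 clusters met the limits, 26 of them members. When each library was left out in turn, 30 to 42 clusters were chosen, and 16 members were chosen every time. The member kept least often was number 32, in 4 of the 9 leave-outs.

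A core of 9 members (numbers 2, 3, 5, 6, 11, 12, 17, 19 and 27) met the limits without any single library, under both scalings and on FPKM. These settings reuse the libraries that chose the members, so the core only marks members further inside the limits. Clusters outside the members were not counted in this way. In these, LL was 2.08 to 3.07 times ML and 2.29 to 3.07 times HL, and ML and HL were at most 1.22-fold apart. Their implied lengths were 499 to 2228 bases, and 1 of the 9 had whole counts throughout. Member 12 had 48.7, 46.6 and 33.1 CPM in LL, 18.7, 20.7 and 19.4 in ML and 22.1, 17.8 and 13.03 in HL. Member 19 had 20.8, 18.9 and 21.7 CPM in LL, 7.96, 9.73 and 10.4 in ML and 8.28, 7.77 and 10.7 in HL. Member 27, with the fewest counts of the core in LL, had 7.14, 8.94 and 7.37 CPM in LL, 4.36, 2.87 and 2.98 in ML and 2.81, 3.11 and 2.45 in HL. Both strongest falls were outside the core: member 7 missed the 1.5-fold limit without 1 ML library, and member 25 was lost in 2 leave-outs.

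**Figure D5:**
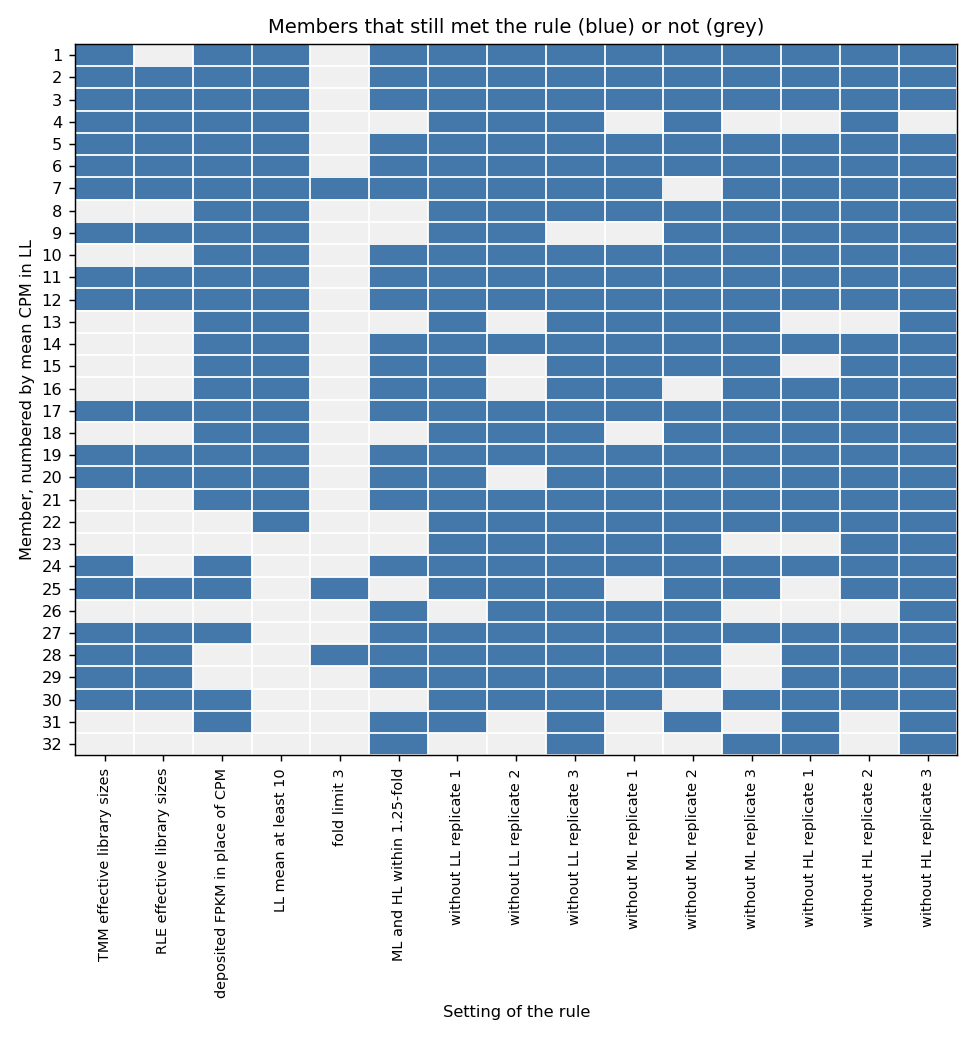
Each row is a member and each column a setting of the limits. Blue marks a member that still met them and grey one that did not. The columns for TMM and RLE sizes hold 19 and 17 blue cells, the column for a fold limit of 3 holds 3, and 16 rows are blue through all 9 columns that leave out a library.

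Other sets chosen on these libraries were set beside the members. The limits turned round, with both means at least 5 CPM and at least 2 times LL, less than 1.5-fold apart and every library above LL, were met by 78 clusters. Whole counts throughout were found in 25% of the 32 lowered members, 24.4% of the 78 raised clusters and 27.1% of the 59 that fell below the same limit at both lights but to unlike levels, against 44.1% of the 14830. An implied length of at least 2500 bases was found in 25% of the lowered members, 11.5% of the raised and 20.3% of the 59. Each of these sets was chosen on the same libraries, and LL is shared by all of their contrasts, so the shares are set side by side with no test. All 32 members carried the same leading number in their identifiers, as did all 14830 clusters, so it does not set them apart.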

How the data were processed

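RNA from 9 D. salina samples was extracted with Trizol, and 1.5 µg each was made into libraries with an NEBNext Ultra kit, per the labels' protocols. Per the file headers, the authors deposited a read count and an FPKM per cluster and library. The deposited counts are estimated counts with decimals, neither depth- nor length-normalized, and the authors divided the FPKM by length and depth. DESeq 1.10.1 is listed in the submitters' processing notes. Which assembler, aligner, counter and build were used, and whether counting used strand, is not given in sources used here.

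CPM were computed from library totals (Python 3.11.15, pandas 2.3.3). The members and lists were chosen with earlier results of these data known. Tests ran on rounded counts in edgeR 4.0.16 (R 4.3.3): default expression filter (34377 clusters, with 99.4% to 99.7% of counts), TMM factors, a robust quasi-likelihood model of group over all 9 libraries (6 residual degrees of freedom) and Benjamini-Hochberg adjustment over all tested clusters, at a threshold of 0.05. Standard errors are the log2 difference over the square root of F. The fit was tested on simulated data. Alternatives used RLE factors, library totals, DESeq2 1.42.0, no filter, a replicate block, leaving out libraries, and limma 3.58.1 on log2(FPKM + 1) or log2(FPKM + 0.1). Implied length was count over FPKM at an FPKM of at least 0.5, the median over libraries. Within groups, libraries differed with a chi-square per degree of freedom of 6.77 to 11.1, so none of the pairs looked like the same library deposited again. This does not tell separate cultures from repeat preparations. The 2 identifiers were set by rule: the highest LL mean, and the strongest fall at 20 CPM or more in LL. By the same rule the next 8 members by LL mean and the 8 strongest falls could be described by number. The others described were picked after their values were seen. No sequence or coordinate is given, since the identifiers could not be matched.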

Additional observations from a re-analysis of the deposited data

How the results depend on the processing

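No direction turned in any alternative for the calls against LL, which stayed between 27 and 31 members of 32. The limits had already placed every ML and HL library below every LL library. This outcome was thus largely set in advance, and nothing is read from it. With TMM factors and the default filter, 22.4% of all tested clusters were called lower in HL and 19.5% lower in ML. The number of clusters meeting the limits was 73 with an LL floor of 1 CPM, 273 with a fold limit of 1.5 and 3 with a fold limit of 3, against 32, and 30 to 42 when single libraries were left out. The members' median log2 ratio of HL to LL was −1.08 with TMM and −1.06 with RLE sizes, against −1.25 with library totals. Members called different between HL and ML numbered 6 with library totals alone and 6 with limma at either pseudocount, against 10, and 7 to 11 when single libraries were left out. Of all 34377 tested clusters, 20098 were called with library totals, against 20219 with TMM factors. With limma 21726 were called at a pseudocount of 1 and 21151 at 0.1. When single libraries were left out, 18224 to 20282 were called, of 35844 to 36619 tested. Nothing is read from the member counts beside these. For Cluster-5009.32401 that difference was not called with library totals or with limma (0.02, adjusted p = 0.771 at either pseudocount). The median implied length was 950.1 bases at an FPKM of at least 2, which 29 members reached, against 1196. The causes of these shifts were not tested, except that the shift of HL against LL and ML follows from the factors' own construction.

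With the replicate number as a replicate block, 28 members were called lower in HL and 28 lower in ML than in LL (29 each without it), and 10 differed between HL and ML, as without it. Of all 34377 tested clusters, that block gave 6941 lower in HL, 6124 lower in ML and 19082 different between HL and ML. Same-numbered samples did not deviate together (9 correlations from −0.124 to −0.00735), and the samples share only a number. Depth limits member 25 most, whose ratios rest on 26.3 estimated counts in ML and 18.2 in HL, summed over each group. The other members below 10 CPM in LL had sums of at least 119 counts in each group, though single libraries among them went down to 0. Decimals in the counts leave the level of 24 members uncertain, if they come from divided reads.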
